A study of Homo sapiens with 2 samples.

Results

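The microRNAs (miRNAs) miR-140 and miR-455 are each cut from a single hairpin, mir-140 and mir-455, and both arms of each hairpin were followed here: hsa-miR-140-5p, hsa-miR-140-3p, hsa-miR-455-5p and hsa-miR-455-3p. They were chosen by the name of their hairpin and make up 4 of the 1497 mature miRNA names, and 2 of the 1095 hairpins, in the deposited table. The choice was made with the high level of miR-140-3p and the difference of miR-455-3p between libraries already known, so both are given as description. The species prefix hsa- is left out in most of what follows.

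The cells were A375, an established human melanoma line grown in DMEM HG complete medium. Cells were seeded in 10 cm dishes, given DMSO (a solvent used as vehicle) after 24 h and harvested 48 h later. All libraries belong to this 1 group. Its 2 libraries are called independent replicates in the labels, which say no more of their origin, and the spread between them may be technical. No untreated, drug-treated or cartilage sample was analysed here, so no condition was compared and every value describes vehicle-treated A375 cells only.

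Both hairpins are best known from cartilage. SOX9, a transcription factor of chondrocytes that is also active in the neural crest lineage from which melanocytes arise, drives mir-140 in mouse chondrocytes together with part of its host gene WWP2, an E3 ubiquitin ligase gene. Mice without mir-140 have skeletal growth defects, and known targets of miR-140-5p include the histone deacetylase HDAC4 and the cartilage-degrading protease ADAMTS5. The hairpin mir-455 lies in COL27A1, a fibrillar collagen gene of cartilage, and in mouse chondrocytes both of its arms repress HIF-2α, a regulator of cartilage breakdown. In melanoma cells, edited forms of miR-455-5p with A-to-I changes have been described. SOX9, WWP2 and COL27A1 messenger RNAs are not measured by small RNA sequencing, so no link between SOX9 and these miRNAs could be examined.

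The mature sequences show which bases select targets, and they are given 5′ to 3′ from RefSeq (GRCh38.p14) with the seed, bases 2 to 8, in capitals.
miR-140-5p: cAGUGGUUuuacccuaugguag
miR-140-3p: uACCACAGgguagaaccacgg
miR-455-5p: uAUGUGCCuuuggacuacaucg
miR-455-3p: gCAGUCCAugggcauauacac
The 4 seeds all differ. Among the 1317 of 1497 names with a RefSeq sequence, no other name carried any of these seeds, and the remaining names were not searched. A search of the same names for bases 2 to 7 or bases 3 to 8 of a member found 2 names, both low. Names that differ at an inner seed base were not searched for. MiR-876-3p matches miR-140-5p at bases 3 to 8 and had 0.0924 RPM (reads per 1000000 read assignments) in replicate 1 and 0.648 RPM in replicate 2. MiR-1910-5p matches miR-455-3p at bases 2 to 7 and had 3.42 and 2.01 RPM.
miR-876-3p: uGGUGGUUuacaaaguaauuca
miR-1910-5p: cCAGUCCUgugccugccgccu
Forms of miR-140-3p that begin 1 base further along are known, and their seed would be CCACAGG. None of the 1317 names searched had that seed. The table gives 1 value per name, so these forms and the edited forms of miR-455-5p are counted within their names or missed, and their shares are not known.

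The hairpins show where the arms lie, and they are given as RNA with both mature arms in capitals.
mir-140: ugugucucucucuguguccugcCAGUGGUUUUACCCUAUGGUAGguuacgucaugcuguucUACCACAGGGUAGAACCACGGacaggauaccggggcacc
mir-455: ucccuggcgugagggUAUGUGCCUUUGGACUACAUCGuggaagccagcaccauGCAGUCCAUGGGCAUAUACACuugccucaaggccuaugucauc
In GRCh38 with the GENCODE 29 annotation, MIR140 occupies bases 69933081 to 69933180 of chromosome 16, plus strand. It lies in intron 16 of the WWP2 transcript with 24 exons, 1190 bases after one exon and 789 bases before the next, in an intron of 2079 bases. MIR455 occupies bases 114209434 to 114209529 of chromosome 9, plus strand, in intron 10 of the COL27A1 transcript with 61 exons. It sits 3137 bases after one exon and 145 bases before the next, in an intron of 3378 bases. Neither hairpin overlapped an exon of its host, and each has its host's strand. Both hairpins have a loop region of similar length between the arms, 17 bases in mir-140 and 16 in mir-455. RNAfold gave mir-140 a predicted folding energy of -54.4 kcal/mol per 100 bases and mir-455 one of -43.9, against a median of -46.6 over the 866 hairpins of the table with a RefSeq hairpin sequence.

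All 4 arms were present well above the limit of counting, at very different levels. Hsa-miR-140-3p was the most abundant, with 10891 RPM in replicate 1 and 11021 RPM in replicate 2, from 117810 and 170037 reads. Its mean was 10956 ± 91.7 RPM (SD, n = 2). Replicate 2 exceeded replicate 1 by 1.01-fold at this arm, with a counting interval of 1.004 to 1.019 (95%, exact). MiR-140-5p, the arm that targets HDAC4 and ADAMTS5, had 415 RPM in replicate 1 and 472 RPM in replicate 2, from 4493 and 7278 reads. Its mean was 444 ± 39.8 RPM (SD, n = 2). The range of miR-140-5p lay far below that of miR-140-3p and above those of both miR-455 arms.

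MiR-455-5p had 128 RPM in replicate 1 and 106 RPM in replicate 2, from 1385 and 1629 reads, with a mean of 117 ± 15.9 RPM (SD, n = 2). MiR-455-3p had 144 RPM in replicate 1 and 69.4 RPM in replicate 2, from 1553 and 1071 reads, with a mean of 106 ± 52.4 RPM (SD, n = 2). Replicate 1 was the higher library for both miR-455 arms, and replicate 2 for both miR-140 arms. The ranges of miR-455-5p and miR-455-3p overlapped, so their order was not resolved. The other neighbours in the order, miR-140-3p over miR-140-5p and miR-140-5p over miR-455-5p, did not overlap in these libraries. MiR-140-5p exceeded miR-455-5p by 3.24-fold in replicate 1 and 4.47-fold in replicate 2. Because adapters ligate to some sequences better than to others, a ratio of RPM between arms need not equal a ratio of molecules.

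**Figure D1:**
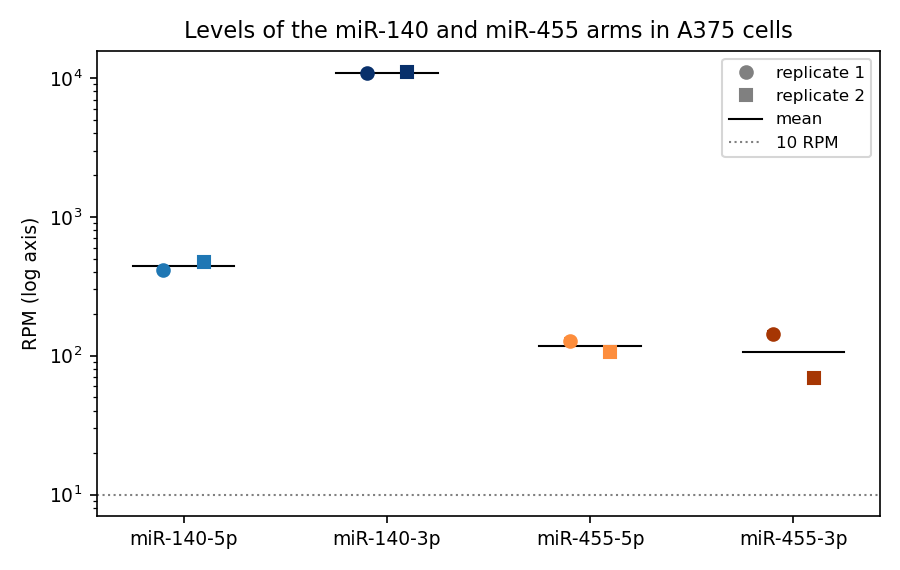
RPM (log axis) of each arm in replicate 1 (circles) and replicate 2 (squares), with the mean as a line and 95% exact Poisson counting intervals that are mostly smaller than the symbols; the dotted line marks 10 RPM. MiR-140-3p stands near 10956 RPM, miR-140-5p near 444 RPM and the miR-455 arms near 117 and 106 RPM, with miR-455-3p the most spread.

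Among all 1497 names, counting each name once at its highest hairpin copy, miR-140-3p had rank 19 by mean, 17 in replicate 1 and 19 in replicate 2. It alone held 1.41% ± 0.00265 of the reduced total (SD, n = 2). MiR-140-5p had rank 95, miR-455-5p rank 156 and miR-455-3p rank 166. The rank of miR-455-3p was the least settled, 146 in replicate 1 and 187 in replicate 2. All 4 arms stood at 10 RPM or more in both libraries, a level that 22.4% of the 1497 names reached. The arms were chosen with their levels known, so this count is a description.

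**Figure D2:**
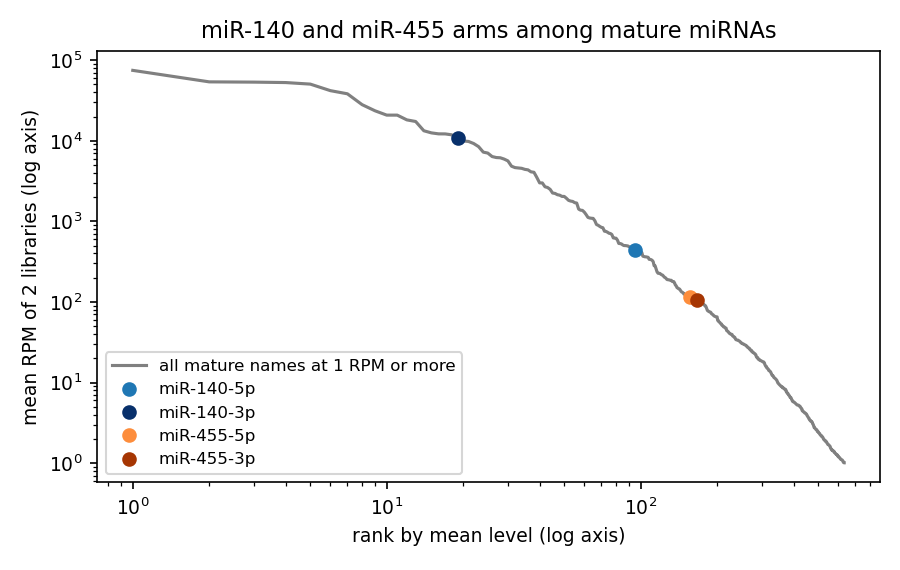
Mean RPM of 2 libraries (log axis) against rank (log axis) for mature names at 1 RPM or more (line), with the miR-140 and miR-455 arms as points. MiR-140-3p lies at rank 19, miR-140-5p at rank 95, and the miR-455 arms lie close together at ranks 156 and 166.

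The names nearest to each arm in level over both libraries give a sense of scale. MiR-140-3p stood beside miR-21-3p (11868 ± 806 RPM), miR-27a-3p (9952 ± 861 RPM) and miR-186-5p (9808 ± 661 RPM). MiR-140-5p stood beside miR-484 (433 ± 42.8 RPM), miR-15a-5p (438 ± 3.68 RPM) and miR-532-5p (459 ± 5.88 RPM). MiR-455-5p stood beside miR-27a-5p (120 ± 10.2 RPM), miR-1304-3p (111 ± 14.7 RPM) and miR-592 (123 ± 19.8 RPM). MiR-455-3p stood beside miR-193a-3p (107 ± 59.1 RPM), miR-877-5p (101 ± 38.9 RPM) and miR-1285-3p (96.1 ± 27.6 RPM). These are SDs over 2 libraries. The likeness is the distance in log2(RPM + 1) over only 2 libraries of 1 condition, and it says nothing of shared control. The range of miR-140-3p overlapped those of 2 other names, while that of miR-455-3p overlapped 60, so the position of miR-455-3p in the order is loose.

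As whole hairpins, mir-140 exceeded mir-455 by a wide margin. The summed arms of mir-140 reached 11307 RPM in replicate 1 and 11493 RPM in replicate 2, and those of mir-455 reached 272 and 175 RPM. The ratio of mir-140 to mir-455 was 41.6-fold in replicate 1 and 65.7-fold in replicate 2. Of the 506 hairpins of the table that lie within introns of protein-coding genes on the host's strand, mir-140 had rank 10 by summed level and mir-455 rank 58, against a median of 0.646 RPM. With hairpins that share a mature name left out, mir-140 had rank 6 and mir-455 rank 45 of 476. One other intronic hairpin of a collagen gene was listed, mir-3129 in COL5A2 (chromosome 2, 189133036 to 189133111, minus strand), with 1.85 RPM in replicate 1 and 1.10 RPM in replicate 2. MiRNA levels depend on transcription, processing and decay together, and host transcription was not measured.

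The hairpins differed in how their reads divided between the arms. In mir-140 the 5p arm held 3.67% of the hairpin's reads in replicate 1 (95% exact binomial interval 3.57 to 3.78) and 4.10% in replicate 2 (4.01 to 4.20). MiR-140-3p thus exceeded miR-140-5p by 26.2-fold in replicate 1 and 23.4-fold in replicate 2. In mir-455 the 5p arm held 47.1% in replicate 1 (45.3 to 49.0) and 60.3% in replicate 2 (58.5 to 62.2). The 3p arm of mir-455 was therefore the higher one in replicate 1, by 1.12-fold, and the 5p arm in replicate 2, by 1.52-fold. No arm preference of mir-455 was shared by both libraries. Arm shares are free of the library total, so scaling cannot move them, and the intervals cover counting error only.

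**Figure D3:**
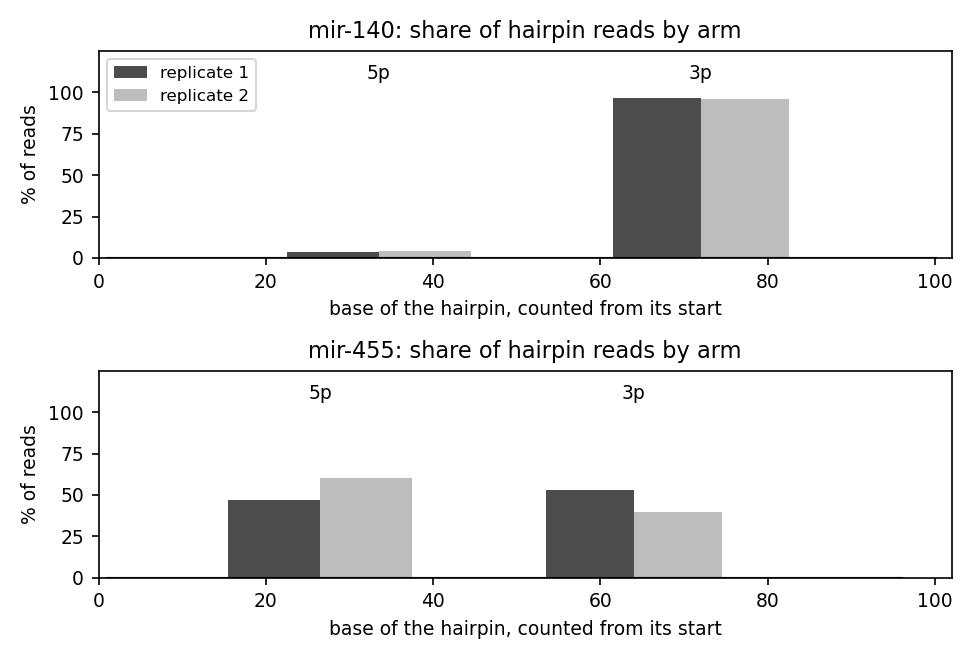
Percent of each hairpin's reads (0 to 100) assigned to the 5p and 3p arms, drawn at the arm's place along the hairpin in bases; each arm's span is split into a left bar for replicate 1 (dark) and a right bar for replicate 2 (light). In mir-140 the 5p bars stay at 3.67% and 4.10%, while in mir-455 they stand at 47.1% and 60.3%.

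On the log2(RPM + 1) scale the 5p over 3p ratio was -4.71 and -4.54 in mir-140, with a mean of -4.63 ± 0.12 (SD, n = 2). It was -0.16 and 0.60 in mir-455, with a mean of 0.22 ± 0.54 (SD, n = 2). These were set against the 137 hairpins whose arms were both in the table and together averaged at least 100 RPM. In 34.3% of them the 3p arm was over 2-fold higher in both libraries, as in mir-140, and in 58.4% the 5p arm was. In 7.3% neither arm was over 2-fold higher in both libraries, as in mir-455. The median size of the log2 ratio was 5.55, so mir-140 was less one-sided than the median hairpin, and 26 hairpins leaned further to the 3p side. By the mean of its ratios, which differ in sign, mir-455 had 4 more balanced hairpins before it, while by single libraries it had 0 in replicate 1 and 7 in replicate 2.

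The hairpins closest to mir-140 in arm ratio were mir-193b (-4.75 and -4.83), mir-1304 (-4.40 and -4.38) and mir-615 (-4.58 and -5.08), none with an arm shared with another hairpin. Those closest to mir-455 were mir-193a (-0.57 and 0.52), mir-361 (-0.37 and 0.23) and mir-424 (-0.23 and -0.01). In 3 hairpins, 2.19% of the 137, the libraries disagreed on which arm was higher, and these were mir-455, mir-193a and mir-361. In all 3 the 3p arm was the higher one in replicate 1 and the 5p arm in replicate 2. Between libraries, the log2 arm ratio of mir-455 differed by -0.76 (replicate 1 minus replicate 2), number 14 in size among the 137, against a median size of 0.28. That of mir-140 differed by -0.17, number 97 in size. Fisher's exact test of the arm reads (two-sided, Benjamini-Hochberg adjusted) called 59.1% of the 137 hairpins different between libraries at an adjusted p of 0.05, mir-140 and mir-455 among them. With so many called, the calls show mainly that libraries differ by more than counting error, and they set neither hairpin apart.

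**Figure D4:**
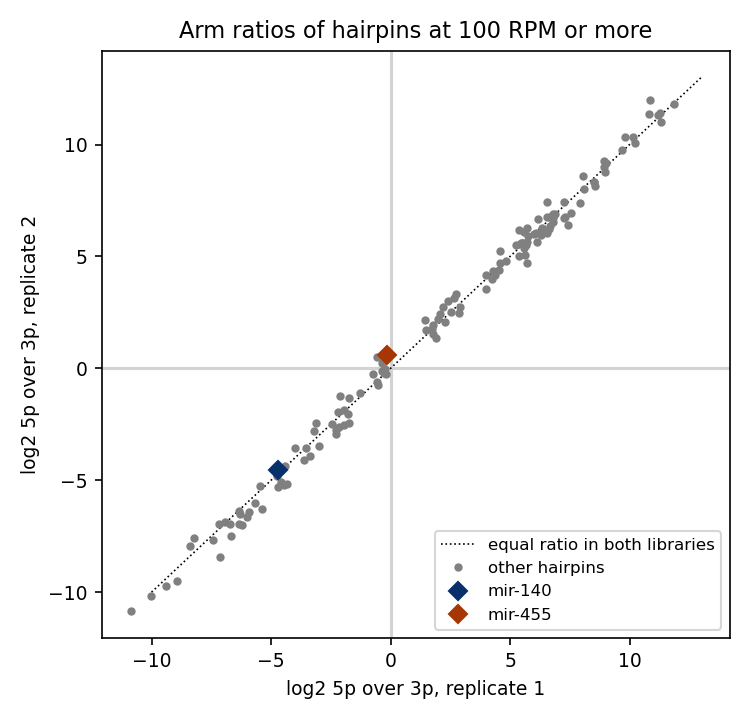
Log2 ratio of 5p over 3p (RPM + 1) in replicate 1 against replicate 2 for the 137 hairpins averaging at least 100 RPM over both arms (grey points), with mir-140 and mir-455 as diamonds and a dotted line of equal ratio. Mir-140 lies at -4.71 and -4.54, and mir-455 lies just across the zero line, at -0.16 and 0.60.

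The first base of an arm is known to bear on its loading into Argonaute, the protein that carries miRNAs, with U favoured. By their RefSeq sequences, miR-140-3p and miR-455-5p begin with U, miR-140-5p with C and miR-455-3p with G. Forms of miR-140-3p that begin 1 base further along would begin with A, and their share is not known. Of the 119 hairpins at 100 RPM or more with a RefSeq sequence for both arms, 72 had exactly 1 arm that begins with U, and in 64 of these (88.9%) that arm had the higher mean ratio. Hairpins that share a mature name were kept, so a miRNA with several hairpins could count more than once. Mir-140 and mir-455 are both among the 64, mir-455 by its mean only, since its arm with U was the lower one in replicate 1. In the predicted fold of mir-140, 3 of the first 4 bases of the 5p arm and all 4 of the 3p arm were paired. In mir-455, 4 of the first 4 bases of the 5p arm and 3 of the 3p arm were paired. The part of these bases in the arm ratios was not tested.

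The 2 libraries were the only measure of error, and miR-455-3p stood out in them. It was 2.07-fold higher in replicate 1 than in replicate 2 (95% exact counting interval 1.91 to 2.24). MiR-455-5p, from the same hairpin, was 1.21-fold higher in replicate 1 (1.13 to 1.30). MiR-140-5p was 1.14-fold higher in replicate 2 (1.09 to 1.18). Of the 346 names with a mean of 10 RPM or more, 1.73% differed by over 2-fold, and miR-455-3p was 1 of these 6. Its log2 ratio of 1.04 was number 5 in size among the 346, those of miR-455-5p (0.28) and miR-140-5p (-0.18) were number 157 and number 223, and that of miR-140-3p (-0.02) was number 338. The median size over all 346 was 0.25, so on the deposited scale both miR-140 arms varied less than the median name.

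Scaling bears on this value. The 335 names at 10 RPM or more in both libraries were by median 1.07-fold higher in replicate 1, a shift of 0.10 on the log2 scale. Relative to that shift the log2 ratio of miR-455-3p was 0.94, under 2-fold, that of miR-455-5p 0.17, that of miR-140-5p -0.29 and that of miR-140-3p -0.12. When reads were compared by Fisher's exact test (two-sided, Benjamini-Hochberg adjusted), 4.6% of 869 names passed an adjusted p of 0.05 with a fold above 2, miR-455-3p among them and the other 3 arms not. At any fold 34.5% passed, all 4 arms included. The test compares 2 libraries of the same treatment, and miR-455-3p was chosen with its difference known, so no p is given for it.

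The library ratio was also read by first base, with no test between bases. The median log2 ratio of replicate 1 over replicate 2 was 0.28 for 21 names that begin with G, 0.24 for 79 with A, 0.06 for 137 with U and -0.04 for 73 with C. The quartiles overlapped, from 0.14 to 0.49 for G, 0.0029 to 0.40 for A, -0.23 to 0.26 for U and -0.23 to 0.23 for C. MiR-455-3p begins with G and had the highest ratio of the 4 arms, and miR-140-5p begins with C and had the lowest. MiR-455-5p and miR-140-3p both begin with U, yet their ratios differed. That of miR-455-5p, 0.276, lay above the upper quartile for U of 0.262, and that of miR-140-3p, -0.02, lay below the median for U. The value of miR-455-3p, 1.04, lay above the upper quartile of 0.49 of the names that begin with G. The part of the first base in the difference was not tested.

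**Figure D5:**
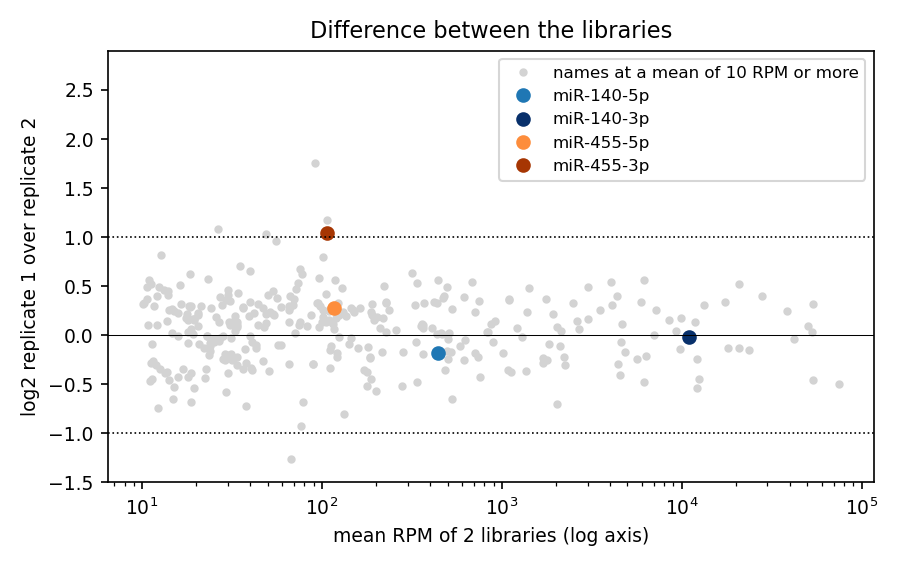
Log2 ratio of replicate 1 over replicate 2 (RPM + 1) against mean RPM (log axis) for the 346 names with a mean of 10 RPM or more (grey), with the miR-140 and miR-455 arms in colour and dotted lines at a ratio of 2-fold in each direction. MiR-455-3p lies just above the upper line at 1.04, and the other 3 arms lie between -0.18 and 0.28.

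Other miRNAs studied in cartilage were compared as a list of 27 names, of which 24 were in the table. Of these, 19 stood at 10 RPM or more in both libraries, with a median of 931 RPM over the 24, beside 22.4% of names at that level and a median of 0.588 RPM over the whole table. Most of the list is widely expressed outside cartilage, and the list was drawn up with levels of these data known, so nothing particular to cartilage follows. Of the 4 names linked to SOX9 as possible targets, miR-29a-3p (1520 and 1852 RPM) and miR-29b-3p (110 and 100.3 RPM), which repress collagen genes, were at that level. The others were not. MiR-675-5p is cut from the noncoding RNA H19 and is reported to be raised by SOX9 in human chondrocytes. It had 6 reads in replicate 1 and 5 in replicate 2, and miR-675-3p had 4 and 2. No direction of the link to SOX9 is assumed for the miR-29 names, so these levels say nothing of SOX9 activity.

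Of the 5 names listed as repressors of SOX9, 4 were in the table. MiR-30a-5p had 24530 and 17093 RPM and miR-101-3p had 2777 and 2215 RPM. MiR-145-5p, which represses SOX9 in chondrocytes, had 3 and 2 reads, and miR-495-3p had 6 and 8. Of the 18 other names studied in chondrocytes, 15 of 16 in the table stood at 10 RPM or more, led by miR-27b-3p (52181 and 48824 RPM), miR-22-3p (41584 and 35006 RPM) and miR-26a-5p (11175 and 13204 RPM). MiR-483-5p had a single read, in replicate 1; the 0 reads of replicate 2 allow a level of up to 0.194 RPM.

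Markers of cell types were read beside these levels. Of 6 melanocyte and melanoma names, 5 stood at 1551 RPM or more in both libraries, while miR-211-5p had 3 and 2 reads. Of the 6 chondrocyte names, the 4 at 10 RPM or more were the miR-140 and miR-455 arms themselves, and both miR-675 arms were near 0. Of 6 mesenchymal names 3 reached 10 RPM, and the 6 summed to 1623 RPM in replicate 1 and 1682 RPM in replicate 2. Those 3 were miR-199a-3p (853 and 833 RPM), miR-199b-5p (663 and 750 RPM) and miR-143-3p (104 and 94.9 RPM). MiR-199a-5p had 1.85 and 3.37 RPM, and miR-145-5p and miR-214-3p had 3 reads or fewer in each library. Of 5 blood names 4 were in the table, and 1 reached 10 RPM, miR-486-5p. Those 4 summed to 174 and 203 RPM, of which miR-486-5p alone had 171 and 200 RPM. No other blood name in the table exceeded 2.22 RPM in either library. Of 4 epithelial names 2 reached 10 RPM, and the 4 summed to 48.5 and 64.4 RPM. These lists were summed per library, and their part in the levels of the 4 arms was not tested.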

How the data were processed

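Small RNA libraries of 2 DMSO-treated A375 samples were analysed. The tools named in the submitters' processing notes are CASAVA 1.8 and cutadapt 1.2.1. Aligner, miRNA annotation and build were not given in the sources used here. The deposited values are RPM (decimal commas), and the authors' columns each sum to 1000000 over 1546 rows. Every value was a whole multiple of 1 read (100% within 0.01 reads), which gave 10816826 and 15428446 read assignments. A read could count on several rows, so each mature name was counted once, at its highest hairpin copy. Each of the 4 arms has 1 hairpin.

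Logarithms used a pseudocount of 1 RPM. Poisson and binomial intervals (95%, exact) cover counting error only, since PCR reads are not independent molecules. Fisher tests covered names with 10 or more reads in sum and hairpins at 100 RPM or more, and were tried on simulated data. The simulated counts held counting error only, so they do not cover the wider spread between these libraries. Alternatives were other totals, scalings, pseudocounts, minima and leaving out each library. No fit between conditions was possible.

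The miRNAs named were the 4 arms, the 3 nearest names in level to each, the 3 nearest hairpins in arm ratio, names sharing a seed, hairpins in collagen introns, and, of the cartilage list, the 3 highest of each sublist and all below 10 RPM. MiR-211-5p, miR-214-3p and miR-486-5p, from the marker lists, were picked after their values were seen. So were the 2 names sharing bases 2 to 7 or bases 3 to 8 with a member. The melanocyte and melanoma list and the mesenchymal list were then named in full. Members and lists were chosen with earlier results of these data known. Of 1095 hairpins, 1094 matched GENCODE 29 by name. Folding used RNAfold 2.7.2, and tests scipy 1.17.1. Positions refer to GRCh38, which need not be the authors' build.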

Additional observations from a re-analysis of the deposited data

How the results depend on the processing

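No paired analysis was possible because both libraries form 1 group. No test of outlying samples was run, since a group of 2 libraries is too small for it, so no result could be flagged. The mean log2 arm ratio of mir-455 depends on the library: leaving out each library gave -0.16 to 0.60, with the negative value from replicate 1 alone, while mir-140 stayed between -4.71 and -4.54. Relative to the total after copies were reduced, miR-140-3p had 14061 RPM, miR-140-5p 569 RPM and miR-455-5p 149.99 RPM, and without the most abundant miRNA in the total miR-140-3p had 11845 RPM. The rank of miR-140-3p was 17 to 19 when each library was left out, and summing copies moved miR-455-5p to rank 161. Scaling by the median ratio gave log2 library ratios of -0.29 for miR-140-5p and -0.12 for miR-140-3p. Counts over all names follow their limits. Hairpins with the 3p arm over 2-fold higher numbered 79 at 10 RPM, 20 at 1000 RPM and 104 with no minimum, against 47. Names over 2-fold apart numbered 32 at 1 RPM, 2 at 100 RPM, 583 with no filter, 28 at 1.5-fold and 1 at 3-fold, against 6. The Fisher test called 300 names at any fold, against 40, and 45 of 70 hairpins at 1000 RPM, against 81 of 137, both alternatives chosen after seeing the data. The other 52 of 71 recomputed values moved by less than their spread or by no more than 1.5 times. For levels and arm ratios, leaving out a library had to stay within the spread of the same 2 libraries unless the sign changed. Those cases therefore do not show stability. Counting limits the lowest names most, where 3 reads equal 0.277 and 0.194 RPM. It also bears on miR-455-3p, whose counting interval of 1.91 to 2.24 for the library ratio spans the 2-fold limit.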
